A study of Homo sapiens with 21 samples.

Results

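A set of 10 genes with large rises after knockdown of APE1 is described here, namely UQCC6, NUP58, RP2, EIF5A2, DCLK1, CLDN12, PTK2, ANKRD46, NIPA1 and DCP2. They are 10 of 19775 genes that had a probe set with exactly 1 gene symbol on the array, and they were read at all 27 of their probe sets with 1 symbol. They were picked by their rise after APE1 siRNA in these same arrays of A549 cells, so their siRNA values are given as a description, without a test. The tests concern the other treatments and the other cell line.

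Expression was measured on 21 arrays, 3 biological replicates for each of 7 groups. A549 is a lung adenocarcinoma cell line. It was transfected with APE1 siRNA or with control siRNA, and cells of either kind were given the histone deacetylase inhibitor trichostatin A (TSA; 100 ng/ml, 4 hours) or no TSA, which makes 4 groups. BEAS-2B is an immortalized bronchial epithelial line. It was transfected with an expression construct of APE1 in 3 forms: NΔ42, which lacks the first 42 amino acids, RR, which carries K6R and K7R, a pair of lysine-to-arginine changes, and wild type (WT). The labels give a harvest at 48 hours for both lines, while the study's methods state a later one for siRNA cells. The arrays used a single APE1 siRNA, and its possible action on transcripts other than APE1 cannot be told apart from the loss of APE1 itself. BEAS-2B cells kept their own APE1, and no group without a construct was measured. APE1 (gene APEX1) is the main endonuclease that cuts DNA at sites with a missing base in base excision repair, and it also regulates transcription, in which its N-terminal lysines, which can be acetylated, take part.

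The 10 genes serve unlike parts of the cell. UQCC6 is a small mitochondrial protein needed to assemble respiratory complex III, NUP58 is a channel protein of the nuclear pore, EIF5A2 is an isoform of the hypusine-bearing translation factor eIF5A, and DCP2 removes the cap of messenger RNA before decay. DCLK1 is a kinase with doublecortin domains that bind microtubules, CLDN12 is a claudin, and PTK2 (focal adhesion kinase) signals from integrins at focal adhesions. RP2 switches off the small GTPase ARL3, which releases lipid-bearing cargo in cilia, and NIPA1 is a magnesium transporter of endosomes that restrains BMP signalling. ANKRD46 is a protein with ankyrin repeats.

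Values are log2 expression values per probe set, so a difference of 1 is a 2-fold change. Levels of different genes, or of the 2 cell lines, cannot be set against each other, because probe sets bind unequally and the lines were normalized apart. Each gene was read first at its leading probe set, the one with the highest mean over all arrays of the cell line, and then at its others. In A549 cells that mean includes the APE1 siRNA arrays, whose rise chose the genes. In control siRNA cells UQCC6 averaged 7.62 at its leading probe set and 8.23 at its other one, 226927_at. With TSA these means were 7.46 and 7.59, so the rise helped decide which probe set of UQCC6 led. A gene was called where limma gave an adjusted p under 0.05 and a difference of at least 0.322 log2 units. The targeted gene followed the labels: APEX1 was at 10.05, 8.43 and 10.18 after APE1 siRNA, against 12.20, 12.24 and 12.14 after control siRNA, and at 9.53, 9.53 and 9.55 after APE1 siRNA with TSA, against 11.85, 11.77 and 11.77 after control siRNA with TSA. In BEAS-2B cells APEX1 was at 10.39, 10.57 and 10.50 with NΔ42 and at 10.61, 10.67 and 10.68 with RR. With WT it was at 10.85, 11.02 and 10.09, a range that held all values of the mutants. The array of APE1 siRNA replicate 2 without TSA stood apart. Its correlation with the other A549 arrays was 0.8758 to 0.896 over all probe sets, where replicates within the other groups correlated at 0.9935 to 0.9985. Its ACTB control probe sets of the 3′ end lay 6.08 log2 units above those of the 5′ end, a gap of 0.125 to 1.06 on the other arrays. Apart from this array, that gap moved with the treatments: it was 0.43 and 0.58 after APE1 siRNA, against 0.13 to 0.35 after control siRNA, and 0.90 to 1.06 after APE1 siRNA with TSA, against 0.54 to 0.87 after control siRNA with TSA, so that neither the siRNA groups nor the TSA groups overlapped. Its part in the results for A549 cells was not tested. Of the epithelial markers, KRT18 averaged 11.16 in A549 and 11.56 in BEAS-2B cells, while EPCAM averaged 4.78 and 5.51, below the median probe set of the line. Of 3 leukocyte markers measured, PTPRC, at 4.65 in A549 and 4.28 in BEAS-2B cells, lay below that median and the other 2 lay above it, with CD3E the highest in A549 (7.59) and CD14 in BEAS-2B cells (6.90). As these are bulk samples, fewer cells of a type and less RNA per cell cannot be told apart.

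At the leading probe sets the difference between APE1 siRNA and control siRNA had a median of 1.30 over the 10 genes without TSA, with a range of 0.92 to 1.58, and of 1.48 with TSA, with a range of 1.17 to 1.73. Over all genes the medians were -0.03 and 0.02. Without APE1 siRNA replicate 2 the median of the 10 genes without TSA was 1.35. Without TSA 9 of the 10 genes passed the call rule, and with TSA all 10 did, where 1.85% and 1.91% of all genes were called higher and 3.09% and 3.37% lower. Nothing is read from these counts, since the rise chose the genes. Of 22 markers of epithelial, alveolar, mesenchymal, leukocyte and endothelial cells, 0 were called after APE1 siRNA in either comparison. The 10 are not simply the genes with the largest differences without TSA. NIPA1 had the smallest of the 10 there with all arrays, at 0.92, but was at 1.31 without APE1 siRNA replicate 2. ABCG1, a lipid transporter, and AOX1, an aldehyde oxidase, differed by 1.35 and 1.26 without TSA and are not among them. With TSA, however, ABCG1 and AOX1 differed by 0.66 and 0.71, below all 10 genes.

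**Figure D1:**
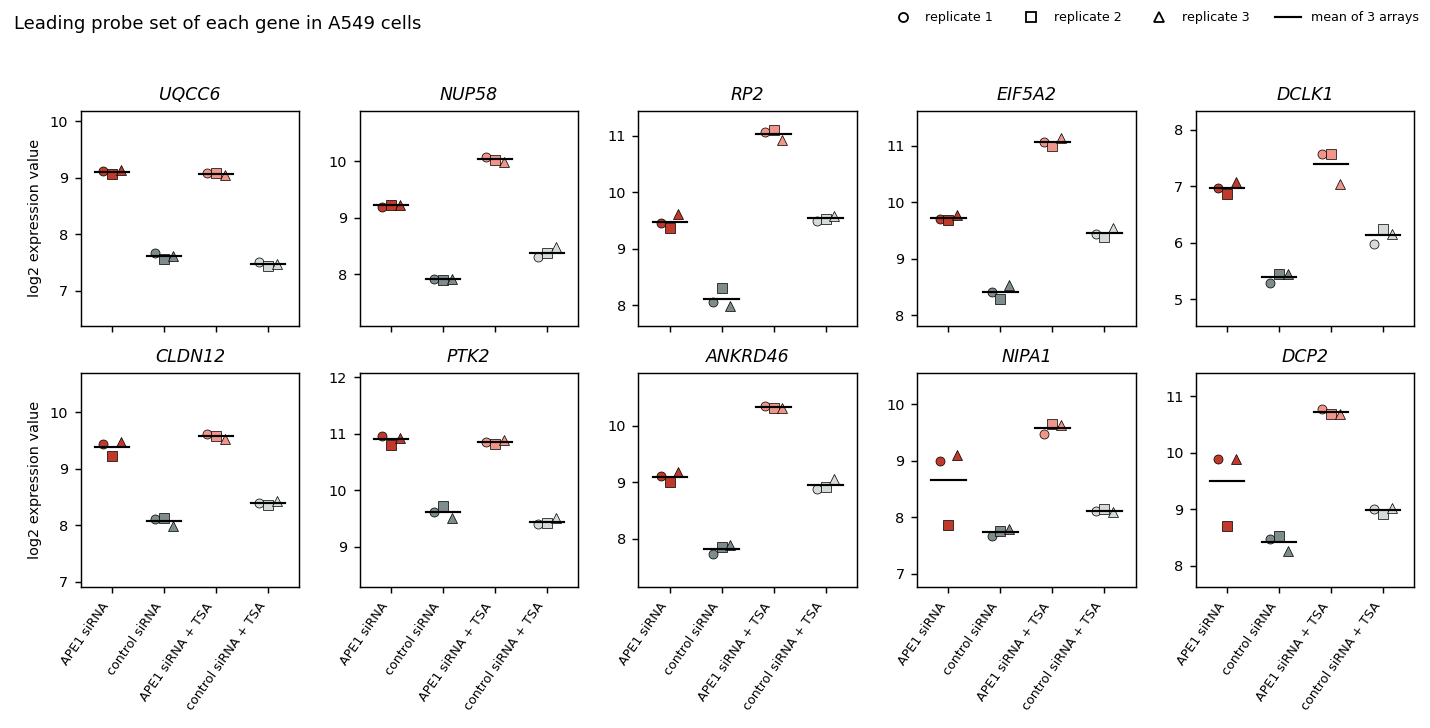
Log2 expression value (vertical axis, each panel spans the same range) of the leading probe set of the 10 genes in A549 cells, by group, with 1 symbol per array and a bar at the mean of 3 arrays. APE1 siRNA arrays lay above control siRNA arrays in every panel with or without TSA, and for NIPA1 and DCP2 the array of APE1 siRNA replicate 2, at 7.86 and 8.71, lay far below replicates 1 and 3.

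Among the genes for organelles, translation and RNA decay, UQCC6 was at 9.11, 9.06 and 9.13 after APE1 siRNA, against 7.67, 7.57 and 7.62 after control siRNA, and at 9.08, 9.08 and 9.04 after APE1 siRNA with TSA, against 7.50, 7.43 and 7.46 after control siRNA with TSA. Every APE1 siRNA array lay above every control siRNA array, by a mean of 1.49 without TSA (2.8-fold) and of 1.60 with TSA (3.03-fold). NUP58, which forms the central channel of the pore with NUP62 and NUP54, was at 9.20, 9.23 and 9.23 after APE1 siRNA, against 7.92, 7.90 and 7.92 after control siRNA. With TSA its values were 10.08, 10.03 and 9.99 after APE1 siRNA, against 8.30, 8.37 and 8.48 after control siRNA. All 4 groups of NUP58 values were separate, and the difference was 1.31 without and 1.65 with TSA. EIF5A2 was at 9.72, 9.68 and 9.78 after APE1 siRNA, against 8.42, 8.30 and 8.54 after control siRNA, and at 11.08, 11.004 and 11.14 after APE1 siRNA with TSA, against 9.45, 9.40 and 9.55 after control siRNA with TSA. The EIF5A2 groups did not overlap either, with differences of 1.31 and 1.61.

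DCP2 was at 9.90, 8.71 and 9.88 after APE1 siRNA, against 8.47, 8.52 and 8.26 after control siRNA, so replicate 2 was close to the control level while still above it. The difference was 1.08 with all arrays and 1.47 without replicate 2. With TSA, DCP2 was at 10.77, 10.69 and 10.69 after APE1 siRNA, against 9.01, 8.91 and 9.02 after control siRNA. That difference, 1.73 (3.33-fold), ranked 1 among the 19775 genes. NIPA1 showed the same split between arrays. It was at 9.004, 7.86 and 9.11 after APE1 siRNA, against 7.67, 7.77 and 7.79 after control siRNA, a difference of 0.92 with all arrays, which did not pass the call rule, and of 1.31 without replicate 2, which did. With TSA it was at 9.47, 9.65 and 9.63 after APE1 siRNA, against 8.11, 8.15 and 8.09 after control siRNA, a difference of 1.47. DCP2 and NIPA1 were the members whose leading value that single array moved most.

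Among the genes of the cytoskeleton, junctions and adhesions, DCLK1 was at 6.97, 6.86 and 7.07 after APE1 siRNA, against 5.29, 5.44 and 5.44 after control siRNA. With TSA it was at 7.56, 7.57 and 7.04 after APE1 siRNA, against 5.98, 6.24 and 6.16 after control siRNA. The siRNA groups were separate within either treatment, with differences of 1.58 (2.99-fold) and 1.27. CLDN12 was at 9.43, 9.22 and 9.47 after APE1 siRNA, against 8.11, 8.12 and 7.99 after control siRNA, and at 9.61, 9.59 and 9.52 after APE1 siRNA with TSA, against 8.40, 8.36 and 8.44 after control siRNA with TSA. Its differences were 1.30 and 1.17, and no groups overlapped. PTK2 was at 10.96, 10.81 and 10.92 after APE1 siRNA, against 9.61, 9.72 and 9.51 after control siRNA, and at 10.86, 10.81 and 10.89 after APE1 siRNA with TSA, against 9.40, 9.42 and 9.50 after control siRNA with TSA. The PTK2 ranges after APE1 siRNA overlapped with and without TSA, and its differences from control siRNA were 1.29 and 1.41.

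By their group means RP2 and ANKRD46 were lowest after control siRNA without TSA and highest after APE1 siRNA with TSA. The same order held for the other genes of the set except UQCC6 and PTK2. RP2 was at 9.45, 9.37 and 9.62 after APE1 siRNA, against 8.05, 8.31 and 7.98 after control siRNA, and at 11.07, 11.10 and 10.92 after APE1 siRNA with TSA, against 9.50, 9.54 and 9.58 after control siRNA with TSA. ANKRD46 was at 9.10, 8.99 and 9.18 after APE1 siRNA, against 7.73, 7.86 and 7.88 after control siRNA, and at 10.34, 10.32 and 10.32 after APE1 siRNA with TSA, against 8.88, 8.91 and 9.06 after control siRNA with TSA. For either gene the APE1 siRNA arrays lay above the control siRNA arrays of the same treatment, with differences of 1.36 and 1.49 for RP2 and of 1.27 and 1.37 for ANKRD46. The siRNA difference with TSA minus that without TSA was -0.31 for DCLK1, -0.13 for CLDN12 and 0.10 to 0.66 for the other genes of the set. It was 0.66 for DCP2 and 0.55 for NIPA1 with all arrays, and 0.26 and 0.15 without replicate 2. Whether the siRNA difference changed with TSA was not tested for these genes, as both differences served to choose them.

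Other probe sets of the same genes showed smaller differences. The 17 probe sets that were not the leading one had a median difference of 0.17 without TSA and 0.12 with TSA. CLDN12 and ANKRD46 had 1 probe set each, and the other genes had 2 to 4. At probe set 226927_at, UQCC6 was at 8.40, 8.11 and 8.62 after APE1 siRNA, against 8.23, 8.20 and 8.25 after control siRNA, where the groups overlapped, and it differed by 0.63 with TSA, when they did not. The 3 other probe sets of NUP58 differed by -0.32 to -0.09 without TSA and by -0.55 to -0.01 with TSA. NIPA1 at 1552696_at differed by -0.05 and -0.19. RP2 at 1568782_at differed by 0.31 without and 0.12 with TSA, where the siRNA groups were separate but the call rule was not passed. For NUP58, RP2 and NIPA1 the large rise was seen at the leading probe set and at no other.

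Several genes were higher at a further probe set by a smaller amount. EIF5A2 at 235289_at was at 8.15, 8.04 and 8.16 after APE1 siRNA, against 7.60, 7.47 and 7.45 after control siRNA, a difference of 0.61 without and 0.74 with TSA. At 220198_s_at its values were 8.10, 6.33 and 8.20 after APE1 siRNA, against 7.07, 7.25 and 7.19 after control siRNA. Replicate 2 lay below the controls there, and the difference was 0.37 with that array and 0.98 without it. DCLK1 at 229800_at differed by 0.81 without and 0.74 with TSA, PTK2 at 207821_s_at by 0.64 and 0.57, and DCP2 at 235258_at by 0.67 and 1.17. PTK2 at 241453_at was at 7.31, 7.24 and 7.27 after APE1 siRNA, against 7.27, 7.24 and 7.26 after control siRNA, a difference of 0.02. When all probe sets of a gene were averaged, the rises ranged from 0.18 for NUP58 to 1.30 for CLDN12 without TSA, and from 0.25 for NUP58 to 1.37 for ANKRD46 with TSA. The positions of the probe sets on the transcripts were not analysed here.

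**Figure D2:**
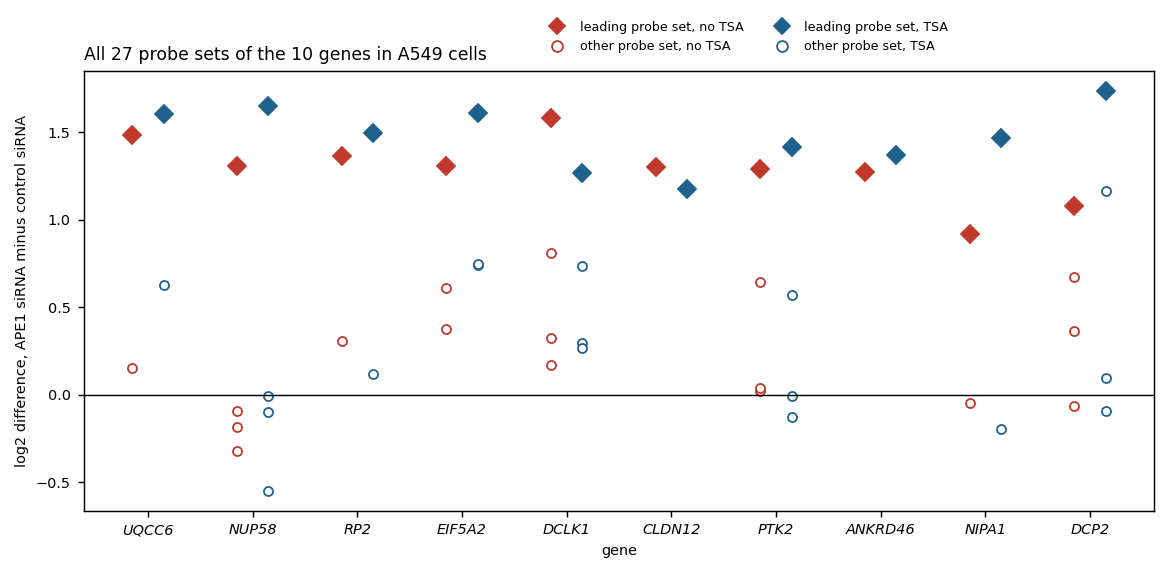
Log2 difference between APE1 siRNA and control siRNA in A549 cells (vertical axis) at all 27 probe sets of the 10 genes (horizontal axis), without TSA in red and with TSA in blue. Diamonds are leading probe sets, which lie between 0.92 and 1.73, and open circles are the other 17, with medians of 0.17 and 0.12.

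The effect of TSA on these genes was tested, first at their leading probe sets. Each such test shares 1 group of arrays with each of the siRNA differences that chose the genes. Every array in these tests thus had a part in that choice. In APE1 siRNA cells 7 of the 10 genes were called higher with TSA and 0 lower, where 15.3% of all genes were called higher and 9.77% lower. The differences were 1.55 for RP2 (adjusted p = 2e-06), 1.35 for EIF5A2 (adjusted p = 1.04e-06), 1.23 for ANKRD46 (adjusted p = 1.43e-06), 1.22 for DCP2 (adjusted p = 0.00618), 0.92 for NIPA1 (adjusted p = 0.0259), 0.81 for NUP58 (adjusted p = 5.68e-06) and 0.43 for DCLK1 (adjusted p = 0.0459). The DCLK1 arrays overlapped, since replicate 3 with TSA, at 7.04, was below replicate 3 without TSA, at 7.07, and its call was lost in 10 of the 12 fits that left out an array. UQCC6 differed by -0.04 (95% interval -0.16 to 0.08), PTK2 by -0.04 (-0.20 to 0.11) and CLDN12 by 0.20 (0.03 to 0.36).

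In control siRNA cells 5 of the 10 genes were called higher with TSA and 0 lower, where 11.9% of all genes were called higher and 8.94% lower. RP2 had the largest difference of the 10, 1.42 (SE 0.10, adjusted p = 4.62e-06), followed by ANKRD46 with 1.13 (adjusted p = 3.23e-06), EIF5A2 with 1.04 (adjusted p = 7.25e-06), DCLK1 with 0.74 (adjusted p = 0.00321) and NUP58 with 0.47 (SE 0.06, adjusted p = 0.00027). For RP2 and ANKRD46 the level with TSA alone overlapped that after APE1 siRNA alone, as the arrays listed for them show. CLDN12 differed by 0.32 (adjusted p = 0.0123), just under the minimum difference, and was not called. PTK2 differed by -0.17 (95% interval -0.33 to -0.01) and UQCC6 by -0.15 (-0.27 to -0.04), and neither was called. The ACTB gap given with the arrays was wider with TSA in either siRNA background, leaving out APE1 siRNA replicate 2. UQCC6, PTK2 and CLDN12 were not called after TSA in either siRNA background at their leading probe sets.

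The outlying array decided several of these calls. Without APE1 siRNA replicate 2, NIPA1 and DCP2 were also called higher with TSA in control siRNA cells, at unchanged differences of 0.37 (SE 0.26 and adjusted p = 0.391 with all arrays, SE 0.07 and adjusted p = 0.000512 without that array) and 0.56 (SE 0.26 and adjusted p = 0.17, then SE 0.07 and adjusted p = 3.01e-05), which made 7 of 10. In APE1 siRNA cells the same 7 genes were called without that array, with the difference of NIPA1 at 0.52 and that of DCP2 at 0.83. The shares of all genes called without that array are not given here, so neither count has a baseline. The NIPA1 call there was lost without APE1 siRNA TSA replicate 2 or 3. At other probe sets, UQCC6 at 226927_at differed by -0.63 with TSA in control siRNA cells (adjusted p = 0.00286), PTK2 at 207821_s_at by -0.62 (adjusted p = 0.00536) and PTK2 at 241453_at by 0.39 (adjusted p = 0.0035). These probe sets of PTK2 were thus called in opposite directions. Over the 17 probe sets that were not the leading one, the median TSA difference was 0.13 in control siRNA and 0.04 in APE1 siRNA cells. At the leading ones it was 0.52 and 0.87. RP2 at 1568782_at differed by -0.04 and -0.24 and NIPA1 at 1552696_at by -0.15 and -0.29, none of them called. The TSA rise of RP2 was thus seen only at its leading probe set. EIF5A2 at 235289_at was called higher in both, at 1.02 and 1.15.

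In BEAS-2B cells, whose arrays had no part in choosing the genes, the 10 genes did not move as 1 group. NΔ42 and RR cells were each set against WT cells, and both tests share the WT arrays. UQCC6, DCLK1 and DCP2 were called higher and NUP58, EIF5A2 and CLDN12 lower with either mutant, and RP2, PTK2, ANKRD46 and NIPA1 were not called. The counts were 3 of 10 higher and 3 of 10 lower in either comparison, where 10.3% and 7.5% of all genes were called higher and lower in NΔ42 cells, and 14.1% and 11.9% in RR cells.

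**Figure D3:**
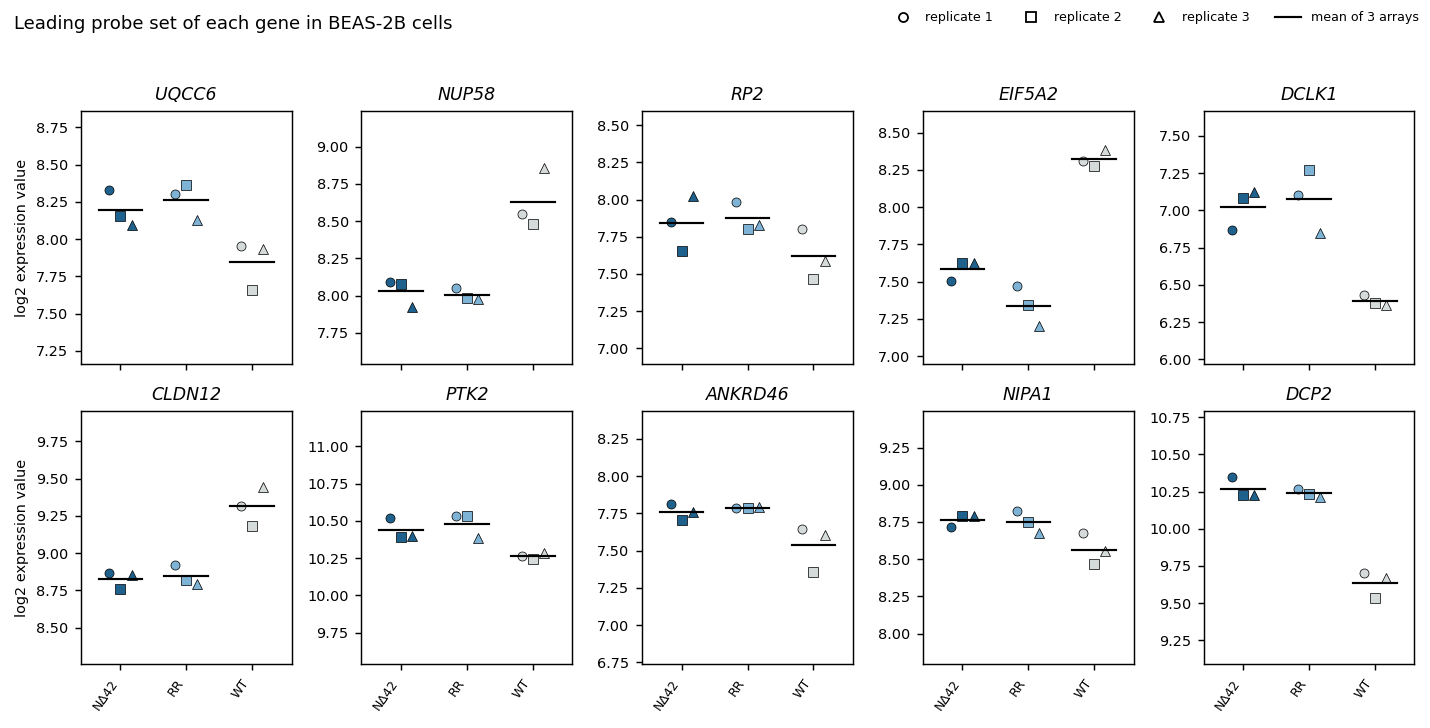
Log2 expression value (vertical axis, each panel spans the same range) of the leading probe set of the 10 genes in BEAS-2B cells with NΔ42, RR or WT APE1, with 1 symbol per array and a bar at the mean of 3 arrays. NΔ42 and RR arrays lay above WT arrays for UQCC6, DCLK1 and DCP2 and below them for NUP58, EIF5A2 and CLDN12.

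EIF5A2 had the largest differences of the 10. It was at 7.51, 7.62 and 7.63 in NΔ42 cells and at 7.47, 7.34 and 7.21 in RR cells, against 8.31, 8.28 and 8.39 in WT cells. All arrays of either mutant were below all WT arrays, with differences of -0.74 (SE 0.07, adjusted p = 8.15e-05) in NΔ42 and -0.99 (SE 0.07, adjusted p = 1.4e-05) in RR cells. NUP58 was at 8.09, 8.08 and 7.92 in NΔ42 cells and at 8.05, 7.98 and 7.98 in RR cells, against 8.55, 8.48 and 8.86 in WT cells. Again the mutants did not overlap with WT, and the differences were -0.60 (adjusted p = 0.00132) and -0.63 (adjusted p = 0.000775). CLDN12 was at 8.86, 8.76 and 8.85 in NΔ42 cells and at 8.92, 8.82 and 8.80 in RR cells, against 9.31, 9.18 and 9.45 in WT cells. Its differences of -0.49 (adjusted p = 0.000948) and -0.47 (adjusted p = 0.000926) were free of overlap too.

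DCP2 was at 10.35, 10.23 and 10.23 in NΔ42 cells and at 10.27, 10.23 and 10.22 in RR cells, against 9.70, 9.53 and 9.67 in WT cells. The differences were 0.63 (SE 0.06, adjusted p = 7.58e-05) and 0.60 (SE 0.06, adjusted p = 7.51e-05). DCLK1 was at 6.87, 7.09 and 7.12 in NΔ42 cells and at 7.10, 7.27 and 6.85 in RR cells, against 6.43, 6.38 and 6.36 in WT cells. Its differences were 0.63 (adjusted p = 0.00178) and 0.68 (adjusted p = 0.000874), and for neither DCP2 nor DCLK1 did a mutant array reach the WT range. UQCC6 was at 8.33, 8.15 and 8.09 in NΔ42 cells and at 8.30, 8.36 and 8.13 in RR cells, against 7.95, 7.66 and 7.93 in WT cells. The mutants were separate from WT, but the difference in NΔ42 cells, 0.34 (adjusted p = 0.0322), was lost in 4 of the 9 fits that left out an array, namely those without WT replicate 2 or 3 or NΔ42 replicate 1 or 2. That in RR cells was 0.42 (adjusted p = 0.00896) and was kept in all 9.

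The remaining 4 genes had small positive differences that were not called. PTK2 differed by 0.17 in NΔ42 cells (95% interval 0.04 to 0.31, adjusted p = 0.0677) and by 0.22 in RR cells (0.09 to 0.35, adjusted p = 0.0172), and ANKRD46 by 0.22 (0.06 to 0.39, adjusted p = 0.06) and 0.25 (0.09 to 0.42, adjusted p = 0.0246). For NIPA1 the differences were 0.20 (0.06 to 0.35) and 0.19 (0.04 to 0.33), and for RP2 0.22 (-0.02 to 0.46) and 0.25 (0.01 to 0.49). Without WT replicate 1 RP2 was called higher in RR cells, at 0.34.

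NΔ42 and RR cells did not differ in a called gene. Between them limma called 0 of 19775 genes (0%), with 2484 genes at an unadjusted p under 0.05, and eBayes with trend and robust called 0 of the 10 as well. Of the 10 genes EIF5A2 had the widest gap, 0.25 higher in NΔ42 than in RR cells (95% interval 0.09 to 0.41, adjusted p = 0.27). Some cell type markers also differed between mutant and WT cells. Of 22 measured, 7 were called in NΔ42 and 10 in RR cells. Over all genes 10.3% were called higher and 7.5% lower in NΔ42, and 14.1% and 11.9% in RR cells. In either mutant CDH1 (epithelial), COL1A1, COL1A2 and PDGFRB (mesenchymal) and CD14 (leukocyte) were higher and LAMP3 (alveolar) and PECAM1 (endothelial) lower, and in RR cells SFTPC (alveolar), DCN (mesenchymal) and CD3E (leukocyte) were lower too. The mean level of the 5 mesenchymal markers was 9.35 to 9.41 in NΔ42 and 9.29 to 9.44 in RR cells, against 8.87 to 8.99 in WT cells, and that of the 4 alveolar markers was 6.40 to 6.47 in NΔ42 and 6.29 to 6.37 in RR cells, against 6.73 to 6.77 in WT cells. Their part in the results for the 10 genes was not tested.

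**Figure D4:**
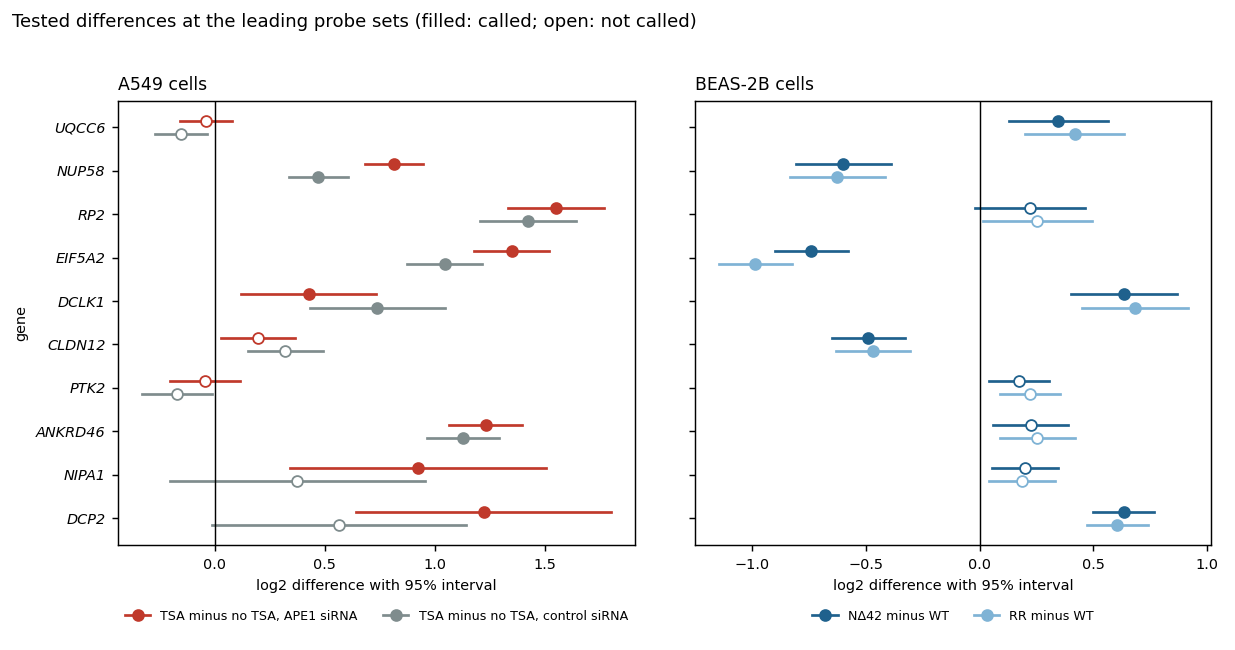
Log2 differences of the leading probe sets (horizontal axis, with 95% intervals from limma) for TSA minus no TSA in A549 cells (left) and for mutant minus WT APE1 in BEAS-2B cells (right). Filled points were called and open points were not: 7 and 5 of the 10 genes after APE1 siRNA and control siRNA on the left, and 6 of the 10 in either mutant on the right.

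At other probe sets EIF5A2 was called lower in BEAS-2B cells as well, at 235289_at, with differences of -0.39 in NΔ42 cells (adjusted p = 0.000779) and -0.47 in RR cells (adjusted p = 0.000211), while at 220198_s_at its differences of -0.24 and -0.30 were under the minimum. NIPA1 at 1552696_at differed by -0.38 (adjusted p = 0.0063) and -0.36 (adjusted p = 0.00561) and was called lower, although its leading probe set had positive differences. DCLK1 at 229800_at had differences of -0.28 and -0.30, opposite to its leading probe set, and was not called. RP2 at 1568782_at and PTK2 at 241453_at were called lower in RR cells, at -0.33 (adjusted p = 0.0135) and -0.41 (adjusted p = 0.00651). The other probe sets of UQCC6, NUP58 and DCP2 were not called in either mutant. UQCC6 at 226927_at differed by -0.02 in NΔ42 and 0.02 in RR cells. Those of NUP58 differed by -0.54 to 0.10 in NΔ42 and by -0.45 to -0.05 in RR cells. In RR cells DCP2 differed by -0.16 at 244777_at, -0.12 at 238779_at and 0.30 at 235258_at. When the probe sets of a gene were averaged, EIF5A2 and CLDN12 were called lower in NΔ42 cells and NUP58, EIF5A2 and CLDN12 in RR cells, while UQCC6, DCLK1 and DCP2 were called in neither.

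APE1 is known to act on transcription with factors such as AP-1 and the Y-box protein, whose binding site holds an inverted CCAAT, so the DNA before the start sites of the genes that moved in BEAS-2B cells is shown. RefSeq promoter sequence of build GRCh38.p14 matched 8 of the 10 genes, all but PTK2 and ANKRD46. The 250 bases before the start are given for the 3 genes called lower, EIF5A2 at chr3:170908638-170908887 (minus strand), NUP58 at chr13:25301375-25301624 (plus strand) and CLDN12 at chr7:90403211-90403460 (plus strand), and for those called higher with 1 listed start, UQCC6 at chr12:103957216-103957465 (minus strand) and DCP2 at chr5:112976548-112976797 (plus strand). Each runs 5′ to 3′ toward the gene. Capitals mark, on either strand, the CCAAT box (CCAAT), the GC box that SP1 binds (GGGCGG), the E-box (CACGTG), the AP-1 site (TGANTCA), the cyclic AMP element (TGACGTCA) or the TATA box (TATAAA).
EIF5A2: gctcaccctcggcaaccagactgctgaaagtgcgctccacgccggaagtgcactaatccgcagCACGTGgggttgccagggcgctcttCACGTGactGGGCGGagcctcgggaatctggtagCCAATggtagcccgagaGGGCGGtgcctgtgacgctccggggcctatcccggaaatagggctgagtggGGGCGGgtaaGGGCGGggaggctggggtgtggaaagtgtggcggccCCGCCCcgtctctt
NUP58: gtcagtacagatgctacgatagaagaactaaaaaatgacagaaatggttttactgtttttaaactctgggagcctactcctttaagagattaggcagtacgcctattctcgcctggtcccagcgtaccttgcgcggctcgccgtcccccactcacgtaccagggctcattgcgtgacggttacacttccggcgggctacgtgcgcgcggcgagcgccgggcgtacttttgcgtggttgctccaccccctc
CLDN12: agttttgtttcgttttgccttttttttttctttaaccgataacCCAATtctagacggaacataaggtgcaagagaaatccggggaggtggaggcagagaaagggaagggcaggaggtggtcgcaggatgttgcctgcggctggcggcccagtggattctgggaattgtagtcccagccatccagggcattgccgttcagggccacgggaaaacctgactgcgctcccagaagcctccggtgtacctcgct
UQCC6: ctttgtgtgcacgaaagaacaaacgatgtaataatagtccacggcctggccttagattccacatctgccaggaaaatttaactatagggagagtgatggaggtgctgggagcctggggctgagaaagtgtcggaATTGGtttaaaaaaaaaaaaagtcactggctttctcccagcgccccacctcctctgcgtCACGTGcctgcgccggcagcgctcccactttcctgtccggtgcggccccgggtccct
DCP2: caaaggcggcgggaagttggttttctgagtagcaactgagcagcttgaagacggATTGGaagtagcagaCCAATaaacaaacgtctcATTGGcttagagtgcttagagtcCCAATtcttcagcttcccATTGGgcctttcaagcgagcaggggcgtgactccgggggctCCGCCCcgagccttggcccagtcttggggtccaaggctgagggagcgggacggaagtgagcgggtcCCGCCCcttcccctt

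No motif was in all of these windows. EIF5A2 held the GC box at 5 places, the E-box at 2 and the CCAAT box at 1. DCP2 held the CCAAT box at 5 places, in either orientation, and the GC box at 2. UQCC6 held 1 CCAAT box and 1 E-box, CLDN12 held 1 CCAAT box, and NUP58 held 0 of the 6 motifs. Of the windows not printed, RP2 held the CCAAT box at 3 places and the GC box at 1, NIPA1 held the GC box at 5, and DCLK1, with 3 listed starts, held the AP-1 site in the windows of 2 of them and 1 GC box in the window of the other. Over 35116 windows of the same length, 32% held the CCAAT box, 42.6% the GC box, 6.57% the AP-1 site, 6.34% the E-box, 10.7% the TATA box and 1.65% the cyclic AMP element. The TATA box and the cyclic AMP element were in none of the windows of the 8 genes. Matches in the windows of the 8 genes did not overlap each other, and a match is a description of letters, not of binding.

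Lists of genes from the pathways, complexes or families of the 10, called partner genes here, were drawn up for each gene except ANKRD46. They make 9 lists with 156 genes, of which 147 were measured. Without TSA 1 of the 147 was called higher and 10 lower, or 0.68% and 6.8%, and with TSA 0 were called higher and 9 lower, or 6.12%, beside the shares of all genes given with the rises. Without APE1 siRNA replicate 2 the counts were 6 higher and 10 lower without TSA, and 5 higher and 16 lower with TSA. The shares of all genes called without that array are not given here, so these counts cannot be set against the shares with all arrays. The median difference of the lists together without TSA was -0.19 with that array and 0.02 without it, and with TSA it was 0.03. Of 15 complex III genes, LYRM7, a chaperone for the Rieske subunit, was called lower, at -0.76 without TSA (adjusted p = 0.000208) and -0.79 with TSA (adjusted p = 0.000128), and so was BCS1L, which inserts that subunit, at -0.33 and -0.42 (adjusted p = 0.018 and 0.00409). Of 29 pore genes 1 was called with all arrays, AHCTF1, which seeds new pores on chromatin, at -0.48 (adjusted p = 0.00532) and -0.41 (adjusted p = 0.0118). Beside RP2, 2 of 13 genes were lower in either comparison: ARL2, a relative of ARL3, at -0.97 and -0.90 (adjusted p = 0.00052 and 0.000657), and TBCE, a tubulin folding cofactor, at -0.37 and -0.38 (adjusted p = 0.0362 and 0.0277). Without replicate 2 the calls of BCS1L and TBCE without TSA were lost, while NUP50 and NUP88 were called higher in either comparison, at 0.38 for both without TSA and at 0.44 and 0.37 with TSA, and NUP43 was called lower without TSA, at -0.33.

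For focal adhesion 3 of 26 genes were lower without TSA. VCL (vinculin) differed by -0.61 (adjusted p = 0.000259), TNS3 (a tensin) by -0.43 (adjusted p = 0.0189) and ARHGEF7, an exchange factor for RAC1 and CDC42, by -1.04 (adjusted p = 0.024). With TSA PARVA was the 1 gene of that list called, at -0.33 (adjusted p = 0.0219). Around DCP2, LSM2, part of the ring that activates decapping, differed by -0.44 without TSA (adjusted p = 0.0105) and -0.36 with TSA (adjusted p = 0.028). CNOT8, a deadenylase, differed by -0.66 (adjusted p = 0.0089) and -0.59 (adjusted p = 0.0149). LSM14B, an RNA granule protein, was the 1 gene called higher, at 0.42 without TSA (adjusted p = 0.0138). Of the tight junction list OCLN (occludin) was lower with TSA, at -0.59 (adjusted p = 0.00155). Of the 3 genes of the eIF5A list, the 5 of the doublecortin list and the 7 of the NIPA list, 0 were called in either comparison with all arrays. Without replicate 2, DCDC2 of the doublecortin list was called higher, at 0.99 without TSA (0.44 with that array) and 0.39 with TSA. CLDN23 was then called higher in either comparison, at 0.33 and 0.34, FERMT2, a kindlin of focal adhesions, higher without TSA, at 0.49, and UQCC3, a complex III assembly factor, higher with TSA, at 0.34. Called lower only without that array were DCPS without TSA, at -0.46, and ARL2BP, ARHGEF7 and 5 mRNA decay genes with TSA.

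In BEAS-2B cells 23 of the 147 partners were called higher and 16 lower with NΔ42 (15.6% and 10.9%), and 27 higher and 17 lower with RR (18.4% and 11.6%). Over all genes these shares were 10.3% and 7.5% in NΔ42 cells and 14.1% and 11.9% in RR cells, so that the share lower in RR cells was near that of all genes. The mRNA decay genes that were called were all higher, as was DCP2 at its leading probe set. They were 9 of 32 in NΔ42 and 12 in RR cells, or 28.1% and 37.5%. The list had median differences of 0.15 and 0.19, against -0.004 and -0.01 over all genes. It was drawn up with earlier results of these data known, and both mutants were set against the same WT arrays. With averaged probe sets DCP2 was called in neither mutant. CNOT8 was higher by 0.74 in NΔ42 and 0.71 in RR cells (adjusted p = 3.41e-05 and 3.42e-05), and PNRC1, a decapping coactivator, by 0.55 and 0.72 (adjusted p = 7.96e-05 and 1.55e-05). CNOT6, another deadenylase, was higher by 0.53 in NΔ42 cells (adjusted p = 0.000189), and LSM2 by 0.57 in RR cells (adjusted p = 5.51e-05). CNOT8 and LSM2 were higher with the mutants and lower after APE1 siRNA in A549 cells.

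**Figure D5:**
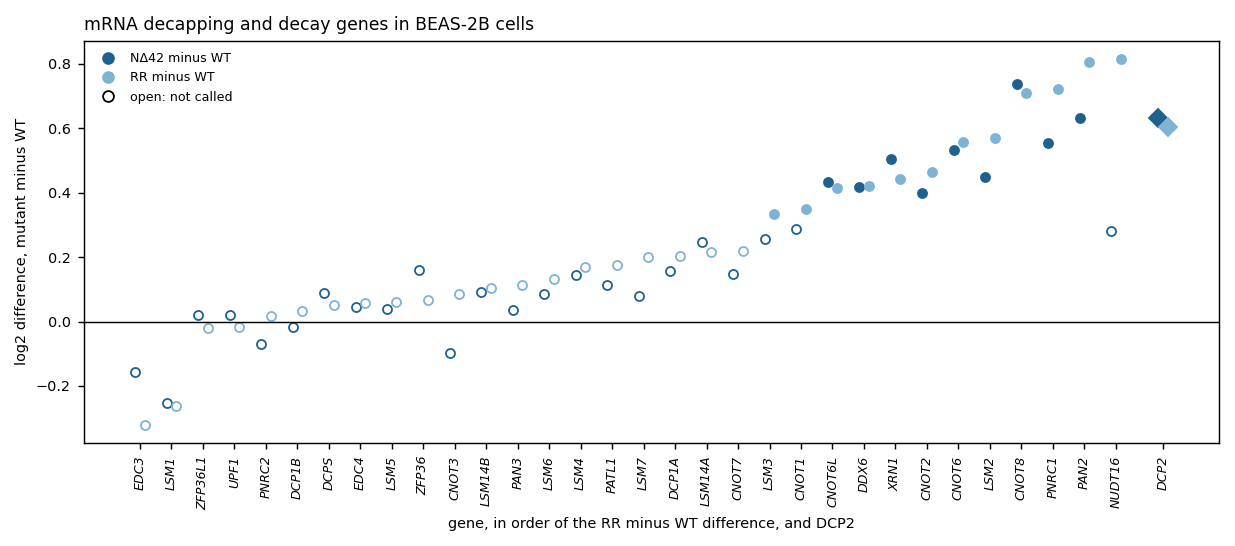
Log2 difference between NΔ42 or RR and WT APE1 in BEAS-2B cells (vertical axis) for 32 mRNA decapping and decay genes and DCP2 at its leading probe set (diamonds), with called genes filled. The called genes, 9 in NΔ42 and 12 in RR cells, all lie above 0.

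EIF5A, the common isoform, was lower along with EIF5A2, at -0.45 in NΔ42 (adjusted p = 0.000138) and -0.40 in RR cells (adjusted p = 0.000241). DOHH and DHPS, which make hypusine on both isoforms, were higher, by 0.47 and 0.35 in NΔ42 cells (adjusted p = 0.00582 and 0.0102) and by 0.80 and 0.44 in RR cells (adjusted p = 0.000194 and 0.00224). Around NUP58, 5 of 29 pore genes were lower and 1 higher in NΔ42 cells, and 4 lower and 1 higher in RR cells. NUP35, a pore scaffold protein, differed by -0.98 and -0.90 (adjusted p = 0.000102 and 0.00013). Around UQCC6, which was higher, TTC19, BCS1L and UQCC2 were lower and UQCRB was higher in either mutant, among 15 genes. TTC19, which maintains complex III, differed by -0.55 and -0.50 (adjusted p = 0.000191 and 0.000263), and UQCRB, a subunit of it, by 0.36 and 0.38 (adjusted p = 0.000407 and 0.000217).

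Beside RP2, 5 of 13 genes were higher and 1 lower in either mutant. ARL3, its GTPase, was higher by 0.59 in NΔ42 and 0.68 in RR cells (adjusted p = 0.00264 and 0.000888), while RP2 was not called. Of 17 claudins and junction genes 2 were lower in NΔ42 cells, and 3 lower and 1 higher in RR cells. CLDN1, like CLDN12, was lower, at -0.48 and -0.49 (adjusted p = 0.000793 and 0.00059). In the focal adhesion list 4 of 26 were higher and 2 lower in NΔ42 cells, and 4 higher and 3 lower in RR cells. PARVA, which links integrins to actin, was higher by 0.52 and 0.58 (adjusted p = 0.000331 and 0.000144). NIPA2, a relative of NIPA1, differed by -0.46 and -0.45 (adjusted p = 0.000628 and 0.000605), and NIPAL3 by 0.39 and 0.49 (adjusted p = 0.00797 and 0.00171). Of the doublecortin list DCLK2 was lower, at -0.32 and -0.40 (adjusted p = 0.0113 and 0.00244), where DCLK1 was higher.

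The genes whose leading probe sets followed the members most closely were found by Pearson correlation over the 12 A549 arrays, as a description over arrays that share treatments and the outlying array. TNFRSF10D, a decoy receptor for TRAIL, ran nearest to UQCC6 (r = 0.995) and to PTK2 (r = 0.992), TSPAN31 to NUP58 (r = 0.991) and DCLK1 (r = 0.972), PLEKHA8 to EIF5A2 (r = 0.991) and ANKRD46 (r = 0.994), and PDGFD, a growth factor, to CLDN12 (r = 0.989). For RP2, NIPA1 and DCP2 the nearest were SLC67A2 (r = 0.9945), FBXO22 (r = 0.976) and SAMD8 (r = 0.989). Second nearest were BNIP2 to UQCC6, C9orf72 to NUP58, SNX16 to RP2, IRAK2 to EIF5A2, TMEM64 to DCLK1, BLTP3B to CLDN12, CARNMT1 to PTK2, AUH to ANKRD46, KLHL2 to NIPA1 and FBXO22 to DCP2, with r from 0.970 to 0.993. Because the members were picked for a rise in these same arrays, high correlations among them are partly set by that choice. Among the members, EIF5A2 and ANKRD46 (r = 0.995), UQCC6 and PTK2 (r = 0.9946), RP2 and ANKRD46 (r = 0.993) and NIPA1 and DCP2 (r = 0.988) ran close together. Of these, RP2, EIF5A2 and ANKRD46 were called higher with TSA in either siRNA background, and UQCC6 and PTK2 in neither.

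Over the 9 BEAS-2B arrays PYGB ran nearest to EIF5A2 (r = 0.994), GTPBP2 to NUP58 (r = 0.988), TUBE1 to CLDN12 (r = 0.993), DPY19L4 to DCP2 (r = 0.997), DNA2 to DCLK1 (r = 0.988), JKAMP to UQCC6 (r = 0.987), CCDC102A to PTK2 (r = 0.993), AGBL3 to NIPA1 (r = 0.9735), DEPDC1B to ANKRD46 (r = 0.974) and RNFT1 to RP2 (r = 0.966). Second in line stood SLC34A2, HDAC9, DESI1, CPE, PLXNA3, APOL1, FBXW7, DZIP3, NEK2 and NUDT12 for the same members in that order. Among the members, NUP58 and CLDN12 (r = 0.967) ran closest here.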

How the data were processed

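RNA of 21 cell line samples was hybridized to Affymetrix HG-U133 Plus 2.0 arrays. The deposited log2 values were made by the authors with affy (RMA). Of the versions of affy, RMA and limma, none is given in the sources used here. As the cell lines were normalized apart, no test was made across them. The authors' tables of comparisons, which hold log fold changes and p-values, were not used.

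The log2 values were fitted per cell line with limma 3.58.1 (lmFit, eBayes; R 4.3.3), with 1 mean per group. Of 54675 probe sets, 62 controls were set aside, and the Benjamini-Hochberg adjustment ran over the remaining 54613, of which 41091 have 1 gene symbol, 1801 several and 11721 none. For a gene the probe set of highest mean over all arrays of the cell line was taken. For arrays no depth applies, and their number limits the precision. The steps were tested on simulated data.

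The members and the gene lists were chosen with earlier results of these data known. Genes named beside the members were APEX1, up to 3 called genes per list and comparison with the smallest adjusted p, and the 2 best correlated genes per member and cell line. ABCG1, AOX1 and any list gene outside this rule were named after their values were seen. Alternatives were fits of only the groups compared, of all 21 arrays or with a replicate block, further quantile normalization, median centring, a mean log2 of at least 6, trend and robust eBayes, averaged probe sets, an adjusted p under 0.01, no minimum fold, and each array left out. Replicate numbers were not used to pair arrays in the main fit. Residuals of same-numbered arrays correlated at -0.0793 to 0.264 in A549 and -0.0331 to 0.201 in BEAS-2B cells. Arrays of different numbers were not compared in this way, so whether the numbers mark pairs cannot be told from these values.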

Additional observations from a re-analysis of the deposited data

How the results depend on the processing

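No called difference of a member changed sign under the alternatives run. Of those not called, CLDN12 changed sign for TSA in APE1 siRNA cells after a further quantile normalization, NIPA1 in NΔ42 and RR cells and RP2 and PTK2 in RR cells did so with averaged probe sets, and several of the differences near 0 between NΔ42 and RR cells did so too. With only the groups compared, 4 members were called higher with TSA in APE1 siRNA cells, against 7. With averaged probe sets 2 members were called in NΔ42 and 3 in RR cells, against 6 and 6, all of them lower. With each array left out in turn the members called numbered 5 to 7 for TSA in APE1 siRNA cells, 5 to 7 for TSA in control siRNA cells, 5 to 6 in NΔ42 and 6 to 7 in RR cells. A further quantile normalization ended the TSA calls of NUP58 (adjusted p = 0.201 in APE1 siRNA and 0.286 in control siRNA cells), UQCC6 was called lower with TSA in control siRNA cells with averaged probe sets, and DCP2 was not called in NΔ42 cells with all 21 arrays in 1 fit (adjusted p = 0.0607).

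Of the partner genes after APE1 siRNA, 11 were called without TSA and 9 with TSA. The counts were 3 and 21 with only the groups compared, 1 and 2 after a further quantile normalization, and 5 and 4 at an adjusted p under 0.01. With an array left out they ranged from 6 to 16 and from 5 to 21, highest without APE1 siRNA replicate 2. They were lowest without control siRNA replicate 2 for the comparison without TSA (7 without control siRNA replicate 3), and without control siRNA TSA replicate 1 or APE1 siRNA TSA replicate 3 for that with TSA. In BEAS-2B cells 39 partner genes were called in NΔ42 and 44 in RR cells, against 21 and 25 with averaged probe sets, and 25 in NΔ42 cells with all 21 arrays in 1 fit. The ranges with an array left out were 35 to 40 and 39 to 50. The causes of these changes were not tested. Shares of all genes called under the alternatives are not given here, so the counts show only calls kept, gained or lost.

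With the replicate number as a block, 6 members were called for TSA in APE1 siRNA cells, where DCLK1 was lost (adjusted p = 0.074), and the members called were 5 for TSA in control siRNA cells, 6 in NΔ42 and 6 in RR cells. The partner genes called were 10 without TSA, 6 with TSA, 39 in NΔ42 and 44 in RR cells. With 3 arrays per group, small differences at probe sets with a wide spread were not detectable.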
